A study of Mus musculus with 185 samples.

Results

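MHC class II molecules present peptides to CD4+ T cells, and this report describes the 10 genes that encode them, their loading machinery and their transcriptional coactivator in single epidermal Langerhans cells (LCs) of the mouse. The members were taken by name from a table of 45661 genes: the chain genes H2-Aa, H2-Eb1 and H2-Ab1, the invariant chain gene Cd74, the peptide editor genes H2-DMa, H2-DMb1 and H2-DMb2, the editor's inhibitor genes H2-Oa and H2-Ob, and the coactivator gene Ciita. All 10 were found. They were chosen by name and function, with earlier results of these data known.

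The cells came from bone marrow chimeras in which irradiated CD45.1 hosts carrying the Cd207DTR allele (a diphtheria toxin receptor under the control of the langerin gene) received CD45.2 wild-type marrow. A low dose of diphtheria toxin, 5 ng per gram of body weight, removed some host LCs, and epidermal LCs were index-sorted 2 months later. Host cells are the embryo-derived LCs (eLCs) and donor cells the monocyte-derived LCs (moLCs), so that origin, the congenic CD45 allele and the Cd207 allele go together in this design and cannot be told apart. The same mice, irradiated and toxin-treated, gave both origins, but the exposure of the cells differed. Only host cells were in place at irradiation and carried the toxin receptor, and the eLCs are those left after the toxin. These differences also go with origin and cannot be told apart from it. The sort gate required surface MHCII, along with CD11c, CD11b, CD24 and CD326, so the presence of class II transcripts in the cells is not independent of how they were taken.

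Each cell was sequenced on its own with a Smart-Seq full-length protocol on 1 of 2 plates, without molecular identifiers. All but 3 moLCs had at most 5% of their reads on mitochondrial genes. Those used were 67 moLCs and 29 eLCs of plate 1, and 36 moLCs and 50 eLCs of plate 2, or 182 cells in all. A cell held a median of 2948820 reads in moLCs and 2779080 in eLCs, over 4026 and 4488 genes. The labels do not name the mouse of a cell, so each origin counts as 1 sample and no test between the origins was possible. The 95% intervals given here cover counting error only. Those of log2 ratios take each read as an independent count, although copies of a molecule cannot be told apart, so they can be too narrow. Langerhans cell markers were read in every cell. The T cell markers Cd3e, Trdc and Thy1, the B cell markers Cd79b, Ms4a1 and Pax5 and the keratinocyte markers Krt1 and Dsp had no read in any cell. Reads on the dermal type 1 dendritic cell list, whose cells also carry class II, were found in 68 moLCs and 55 eLCs, with medians of 82.3 and 64.7 CPM and up to 1318 and 854 CPM. On the T cell list they were found in 2 moLCs and 3 eLCs, up to 21.5 and 23.9 CPM, on the B cell list in 9 and 7, up to 1012 and 1422 CPM, on the keratinocyte list in 19 and 7, up to 542 and 95.3 CPM, and on the monocyte list in 44 and 18, up to 577 and 439 CPM. CPM are reads scaled to a total of 1000000, and the part of these lists in the results was not tested.

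An alpha and a beta chain pair in the endoplasmic reticulum and bind the invariant chain, which blocks the groove and carries the complex to endosomes. There proteases cut the invariant chain down to a fragment that H2-DM removes and replaces with peptide, while H2-DO, best known from B cells, restrains H2-DM. The genes share a promoter module, the X and Y boxes, bound by the RFX complex and by NF-Y, and they are transcribed when Ciita, which binds no DNA itself, joins these factors. Resting LCs keep much of their class II inside the cell and move it to the surface as they mature.

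The promoter sequences below are shown because they carry the elements through which Ciita is known to act on the genes measured here. RefSeq windows (GRCm38.p6) were matched for 7 members, and not for H2-Ab1, Cd74 or Ciita. Each line gives 90 bases, from 120 to 31 bases before the annotated start, 5′ to 3′ on the gene's strand, and the capitals mark GATTGG, the core of the Y box, and GCAAC, part of the X box, where it preceded GATTGG. The windows are chr17:34287854-34287943 on the minus strand for H2-Aa and, on the plus strand, chr17:34305747-34305836 for H2-Eb1, chr17:34092259-34092348 for H2-Oa, chr17:34238785-34238874 for H2-Ob, chr17:34153071-34153160 for H2-DMb1 and chr17:34145129-34145218 for H2-DMb2.
H2-Aa: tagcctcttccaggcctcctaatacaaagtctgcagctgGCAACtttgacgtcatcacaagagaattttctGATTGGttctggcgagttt
H2-Eb1: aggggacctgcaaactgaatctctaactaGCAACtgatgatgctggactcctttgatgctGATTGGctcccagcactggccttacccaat
H2-Oa: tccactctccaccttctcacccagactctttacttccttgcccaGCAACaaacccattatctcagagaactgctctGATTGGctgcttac
H2-Ob: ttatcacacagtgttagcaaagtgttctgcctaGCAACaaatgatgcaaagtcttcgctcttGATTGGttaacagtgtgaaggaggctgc
H2-DMb1: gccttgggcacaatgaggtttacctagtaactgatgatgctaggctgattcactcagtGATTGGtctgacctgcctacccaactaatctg
H2-DMb2: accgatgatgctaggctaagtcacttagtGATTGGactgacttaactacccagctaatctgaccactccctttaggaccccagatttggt

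In H2-Aa, H2-Eb1, H2-Oa and H2-Ob, GATTGG began 49, 60, 44 and 58 bases before the start, and GCAAC began 32, 31, 32 and 29 bases before GATTGG. H2-DMb1 and H2-DMb2 held GATTGG 62 and 91 bases before the start, with no GCAAC in front of it. H2-DMa has 2 annotated starts, and in 1 of their windows GATTGG lay 199 bases before the start, outside the stretch that was printed for the other genes. The background was counted over whole RefSeq windows of 300 bases around annotated starts, longer than the stretches printed. Of 32851 such windows, 16.1% held GATTGG on either strand, 35.2% held GCAAC, 3.32% held GATTGG on the gene's strand 40 to 100 bases before the start, and 0.630% held GCAAC within 45 bases before GATTGG. The motifs were searched as these exact letters. A match describes the letters of the window and is no evidence that a factor was bound in these cells.

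The class II genes took a large share of all reads in cells of either origin. Summed over cells, the 10 genes held 20.2% of the reads of moLCs and 20.8% of those of eLCs. The plate 1 shares were 19.9% for moLCs and 21.6% for eLCs. Those of plate 2 were 20.6% and 20.3%, so the order of the origins turned between plates. Cell by cell, the share ran from 0.908% to 31.4% in moLCs with a median of 20.6%, and from 11% to 32% in eLCs with a median of 21.1%. The ranges overlapped above 11%. H2-Aa, H2-Ab1, H2-Eb1 and Cd74 together made up 98.6% of these reads in moLCs and 98.7% in eLCs, so that the loading genes and Ciita are a small part of the total.

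**Figure D1:**
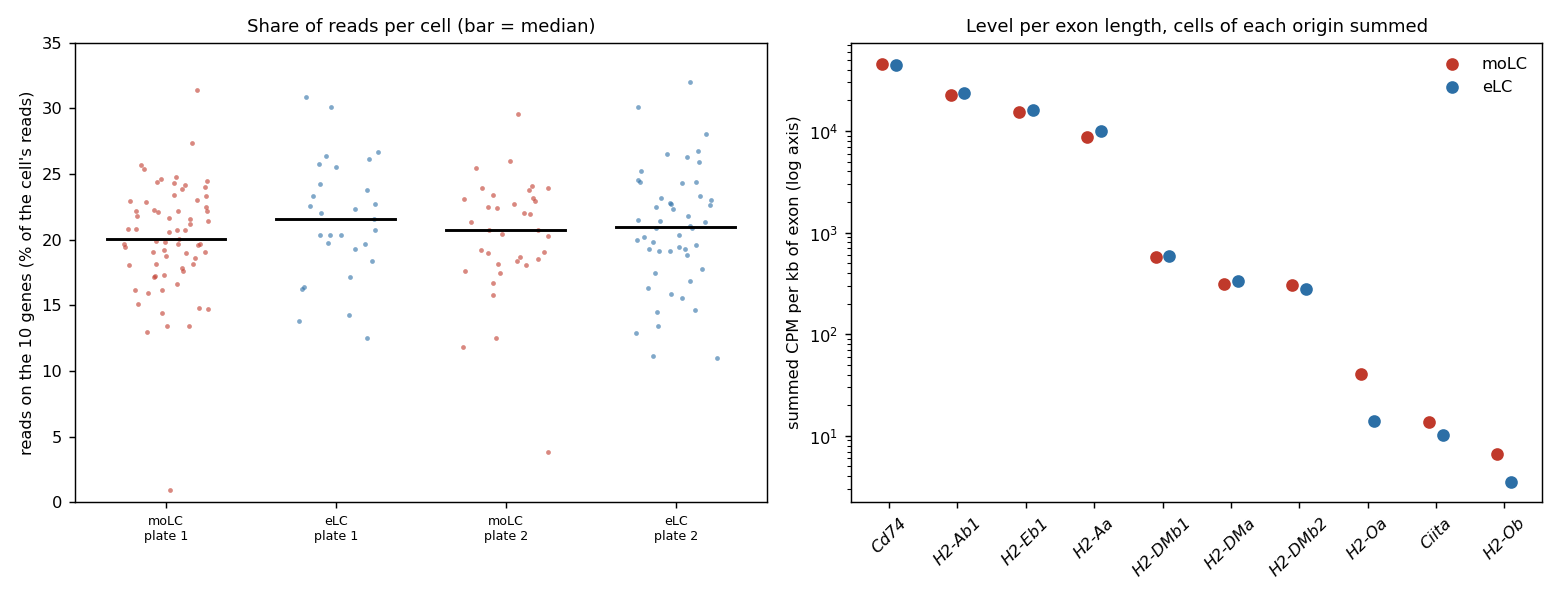
Left, the percent of each cell's reads on the 10 class II pathway genes, by origin and plate, with 1 point a cell and a bar at the median. Right, the summed level per kb of exon for each gene on a log axis, with moLCs in red and eLCs in blue. Medians lie between 20.1% and 21.6% in the 4 sets of cells, 2 moLCs lie below 4%, and the genes span about 4 orders of magnitude from Cd74 to H2-Ob.

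Between genes, levels were compared per kb of annotated exon, in CPM per kb. Cd74, whose product is the invariant chain, was the highest, with 46042 CPM per kb in moLCs and 44628 in eLCs. The beta chain genes H2-Ab1 (22660 and 23809) and H2-Eb1 (15419 and 16221) came next, followed by the alpha chain gene H2-Aa (8788 and 10003). H2-Aa and H2-Ab1 encode the chains of a single heterodimer, I-A, and the exon length used for H2-Aa, 3798 bases, covers every annotated isoform. The editor genes formed a lower tier, with 569 and 586 CPM per kb for H2-DMb1, 312 and 333 for H2-DMa, and 306 and 277 for H2-DMb2. The lowest tier held H2-Oa (40.7 in moLCs and 13.9 in eLCs), Ciita (13.5 and 10.3) and H2-Ob (6.65 and 3.55). The order of the 10 genes was the same in both origins, with H2-DMa and H2-DMb2 the closest neighbours in moLCs.

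H2-Aa, the I-A alpha chain gene (chr17:34282744-34287823, minus strand, GENCODE M21 on GRCm38), was read in every cell. Its level ran from 881 to 66475 CPM in moLCs with a median of 32448, and from 17646 to 77283 in eLCs with a median of 37876. The lower tail of moLCs lay below every eLC, and otherwise the origins overlapped. Of all pairs made of 1 moLC and 1 eLC, the moLC was the higher in 34.8%, the share farthest from an even split among the 10 genes. The summed level was lower in moLCs by a log2 ratio of -0.187 (95% interval -0.188 to -0.186), with -0.22 in plate 1 and -0.09 in plate 2. The difference between plates within moLCs, 0.19 on the log2 scale, was as large as that between origins.

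H2-Ab1, the I-A beta chain gene (chr17:34257689-34269419, plus strand), ran from 233 to 115912 CPM in moLCs around a median of 58780, and from 27733 to 105406 in eLCs around 60710. H2-Eb1, the beta chain gene of the other isotype, I-E (chr17:34305867-34316674, plus strand), ran from 788 to 52473 CPM in moLCs around 29496, and from 15550 to 50045 in eLCs around 31513. For both genes the cells of the origins overlapped, with log2 ratios of summed CPM of -0.071 and -0.073 that became 0.031 and 0.029 with TMM scaling factors, which shift every ratio by 0.10. H2-Eb1 had the steadiest ratio, -0.074 in plate 1 and -0.075 in plate 2, and it was the only member whose origins differed more than the plates did within each origin, where plate 2 and plate 1 differed by -0.0073 in moLCs and -0.0066 in eLCs. H2-Ab1 gave -0.13 and -0.04 in the plates. Mice of the B6 background, which the study's methods give for its CD45.1 and CD45.2 animals, make no I-E alpha chain to pair with the product of H2-Eb1. The table lists the alpha chain gene as H2-Ea-ps, which had reads in 11.4% of eLCs and 10.7% of moLCs.

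Cd74 (60803848 to 60812652 on the plus strand of its chromosome) ran from 7178 to 112667 CPM in moLCs with a median of 79067, and from 34770 to 123352 in eLCs with a median of 75425. Its log2 ratio of summed CPM was 0.04, with -0.08 in plate 1 and 0.16 in plate 2, so the order of the origins was opposite in the plates. The spread of these 4 genes over cells was small. Their coefficient of variation (SD over mean of CPM) lay between 0.24 and 0.31 in either origin, against 0.67 to 1.01 for the editor genes. The editor genes were read at far lower levels, and the part of level in this contrast was not tested. Within a cell, the median log2 ratio per length of H2-Eb1 to H2-Ab1 was -0.53 in moLCs and -0.56 in eLCs. That of H2-Aa to H2-Ab1 was -1.36 and -1.22, and that of Cd74 to H2-Ab1 was 1.04 and 0.91. The SD of these ratios over cells was 0.30 to 0.56. Genes of small spread have narrow ratios even if they vary apart, so these SDs alone do not show that the 4 were held together.

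**Figure D2:**
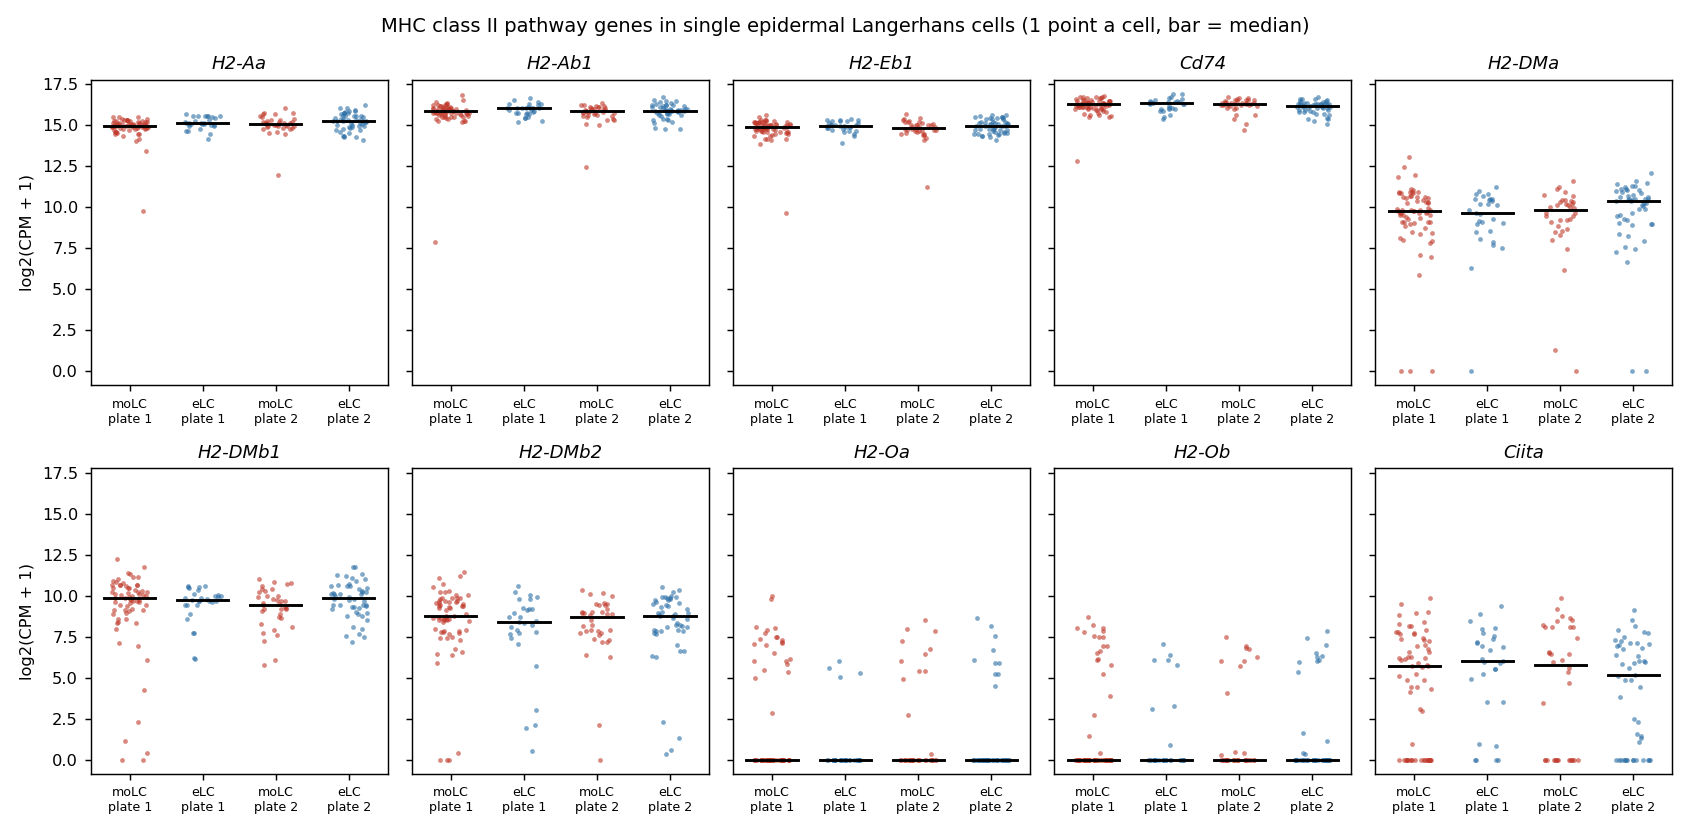
Level of each member in every cell as log2(CPM + 1), by origin (moLC red, eLC blue) and plate, with 1 point a cell and a bar at the median. H2-Aa, H2-Ab1, H2-Eb1 and Cd74 form tight bands with a few low moLCs, the H2-DM genes spread over a wider range, and H2-Oa, H2-Ob and Ciita include many cells at 0.

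The H2-DM genes encode the enzyme-like editor that frees the groove of the invariant chain fragment. H2-DMa, its alpha chain (chr17:34119541-34139101, plus strand), was read in all but 4 moLCs (96.1% had a read) and all but 3 eLCs (96.2%), with medians of 870 and 1163 CPM and highest values of 8380 and 4256 CPM. H2-DMb1 (chr17:34153072-34160230, plus strand) was read in all but 2 moLCs (98.1%) and in all 79 eLCs, with medians of 836 and 893 CPM and highest values of 4780 and 3485. H2-DMb2 (chr17:34143307-34151555, plus strand) was read in all but 4 moLCs (96.1%) and all 79 eLCs, with medians of 430 and 403 CPM and highest values of 2733 and 1538. With at least 10 reads asked for, the H2-DMb2 shares were 95.1% of moLCs and 92.4% of eLCs, the other order. The beta chain genes are near copies: 254 windows of 75 bases, the read length, were identical between them, 15.8% of those of H2-DMb1 and 14.6% of those of H2-DMb2. How such reads were assigned is not stated, so the split between the beta genes is uncertain. In H2-DMa, 10.4% of exon bases also lie in exons of Brd2.

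For none of the editor genes did the origins hold 1 order in both plates. The log2 ratio of H2-DMa was -0.10 over all cells, 0.28 in plate 1 and -0.42 in plate 2. That of H2-DMb1 was -0.04, with 0.33 and -0.47 in the plates, and that of H2-DMb2 was 0.14, with 0.26 and -0.07. For H2-DMa and H2-DMb1 the plates differed within each origin by more than the origins did, for H2-DMb1 by -0.41 in moLCs and 0.39 in eLCs on the log2 scale of plate 2 over plate 1. Within a cell, H2-DMb2 stood below H2-DMb1 by a median log2 ratio per length of -0.89 in moLCs and -1.34 in eLCs, with an SD over cells of 2.26 and 2.61. The H2-DMa to H2-DMb1 ratio had medians of -0.98 and -0.79. Relative to H2-Ab1, H2-DMb1 was at -5.50 and -5.39.

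H2-Oa and H2-Ob, the chains of the H2-DM inhibitor, were read in a minority of cells. H2-Oa (chr17:34092340-34095234, plus strand) had a read in 35 moLCs (34%, exact interval 24.9 to 44) and in 14 eLCs (17.7%, 10.04 to 27.9). In plate 1 the shares were 34.3% and 13.8%, and in plate 2 they were 12 of 36 moLCs and 10 of 50 eLCs. At an equal depth of 2052512 reads a cell, reached by 96 moLCs and 67 eLCs, they were 35.4% and 17.9%. Every sorted cell was gated as an LC, so no class II-negative cell was present to give a background share. Among cells with a read, the median was 125 CPM in moLCs and 58.3 in eLCs, and the highest cells reached 1027 and 404 CPM.

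The summed level of H2-Oa was 57.3 CPM in moLCs and 19.6 in eLCs, a log2 ratio of 1.55 (95% interval 1.497 to 1.594), the largest of the 10 genes. It was 3.77 in plate 1, where only 4 eLCs had a read, and 0.37 in plate 2. A few cells carried the sum: 1 eLC of plate 2 held 31.1% of all H2-Oa reads of eLCs, and without it the log2 ratio was 2.06, while the ratio ranged from 1.26 to 2.06 as each cell was left out in turn. The plates differed more than the origins within eLCs, by 2.58 on the log2 scale of plate 2 over plate 1. In H2-Oa, 22.8% of exon bases also lie in exons of BC051537, and counting by strand is not stated, so reads of the pair cannot be told apart there.

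H2-Ob (chr17:34238903-34254414, plus strand) was read in 33 moLCs (32%, 23.2 to 42) and 22 eLCs (27.8%, 18.3 to 39.1), with overlapping intervals. Its highest values were 415 CPM in moLCs and 229 in eLCs. The log2 ratio of summed CPM was 0.91 over all cells, 1.68 in plate 1 and -0.08 in plate 2. Both chains are needed for the inhibitor, and 14 moLCs had reads of both genes, 21 of H2-Oa only, 19 of H2-Ob only and 49 of neither. In eLCs, 9 had both, 5 H2-Oa only, 13 H2-Ob only and 52 neither. In both origins, cells with reads of a single chain gene outnumbered those with reads of both. With each gene read in so few cells, this order would hold also if the genes were read independently. A transcript that is present can go unread, so the counts do not show how many cells lacked a chain.

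Ciita (chromosome 16, 10480059 to 10528418, plus strand) was read in 68 moLCs (66%, 56 to 75.1) and 61 eLCs (77.2%, 66.4 to 85.9), although every cell had reads of the chain genes it controls. Levels ran from 0 to 937 CPM in moLCs with a median of 51.9, and from 0 to 658 in eLCs with a median of 56. Summed, Ciita was at 129 CPM in moLCs and 97.9 in eLCs, a log2 ratio of 0.40, with -0.11 in plate 1 and 0.94 in plate 2. The coefficient of variation was 1.49 in moLCs and 1.35 in eLCs. The share of cells with a read was higher in eLCs in both plates, 86.2% against 68.7% and 72% against 61.1%, while the summed level was higher in moLCs in plate 2. The intervals of the shares over all cells overlapped. With at least 10 reads asked for, the shares were 69.6% of eLCs and 65% of moLCs. They were 79.3% and 67.2% in plate 1, and 64% and 61.1% in plate 2. Leaving out each cell in turn moved the log2 ratio between 0.28 and 0.53.

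Origin therefore separated none of the members by the size rule used here, a summed CPM at least 2-fold apart in the same direction over all cells and in each plate, with a read in at least 25% of cells of an origin. All 10 members were tested by this rule and 0 passed, whereas 2.02% of the 6522 genes tested did, 0.813% higher in moLCs and 1.21% higher in eLCs. With 10 members, 0 is near that background and is no result about the group. The median log2 ratio of the members was 0.00, with 5 above 0 and 5 below, beside -0.10 for all genes tested. In the plates it was 0.09 and -0.07, beside -0.07 and -0.09. For 4 members, H2-Aa, H2-Ab1, H2-Eb1 and H2-Oa, the sign was the same in both plates, and for the other 6 it was opposite.

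**Figure D3:**
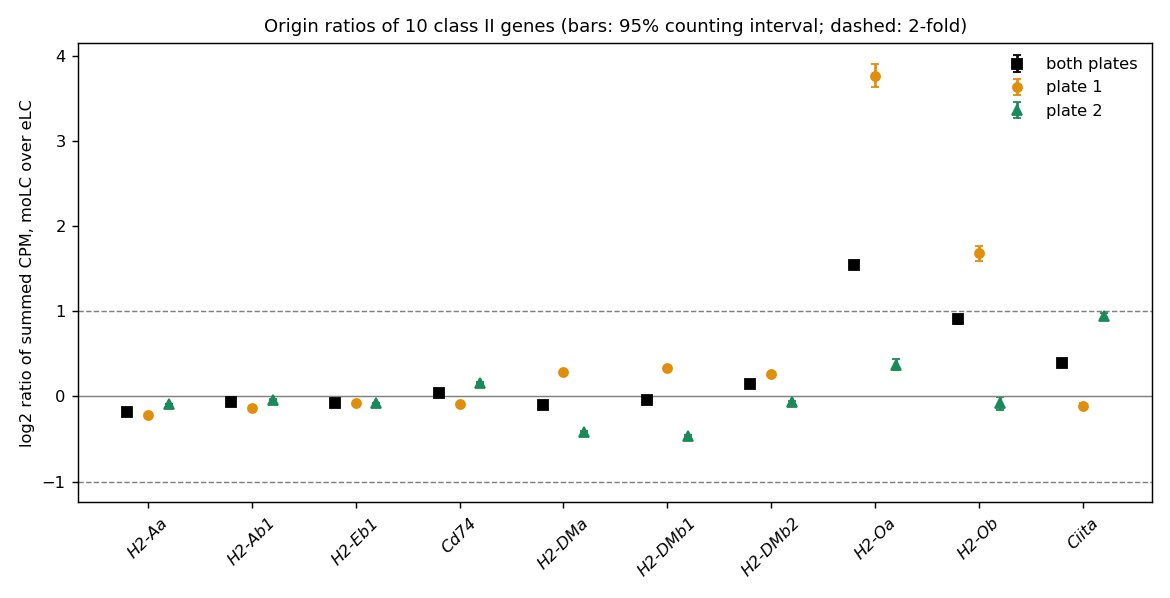
Log2 ratio of summed CPM, moLC over eLC, for each member over both plates (black squares), plate 1 (orange circles) and plate 2 (green triangles), with 95% counting intervals and dashed lines at 2-fold. The classical chain genes and Cd74 lie within 0.22 of 0, while H2-Oa runs from 0.37 in plate 2 to 3.77 in plate 1.

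The other genes of the pathway were taken from a list of 24 names, of which 23 were in the table (H2-Ea was not) and 17 were read in enough cells to be tested. Of these 17, 0 passed the size rule, with a median log2 ratio of -0.15, and 6 lay above 0 and 11 below. Among all 6522 genes tested, 2.02% passed, the median was -0.10 and 39.4% were higher in moLCs. The list lay near that background, so its counts are no result about the pathway. Of the factors that act at the X and Y boxes, Creb1 was read in the most cells, 72.2% of eLCs and 68.9% of moLCs, at 84.2 and 71 CPM. Of the RFX subunits, Rfxap had reads in 40.5% of eLCs and 29.1% of moLCs, Rfxank in 30.4% and 18.4%, and Rfx5 in 10.1% and 9.71%. Nfya, Nfyb and Nfyc, the NF-Y subunits, were read in 32% to 48.1% of cells. Rfxap had a log2 ratio of -0.65, with -1.38 in plate 1 and 0.16 in plate 2.

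Among factors known to act on Ciita, Spi1 (PU.1) had reads in 98.7% of eLCs and 97.1% of moLCs, at 654 and 710 CPM. Prdm1 (Blimp-1), a repressor of Ciita, had a log2 ratio of 0.86, with 1.05 in plate 1 and 0.18 in plate 2. Irf1, which interferon-gamma induces, had -0.53, with -0.16 and -1.07. Of the genes that govern the surface life of class II, March1, whose ubiquitin ligase drives class II to degradation, had reads in 6.33% of eLCs and 9.71% of moLCs, and Cd83, which counters it, in 97.5% and 98.1%, at 5064 and 5785 CPM.

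Of the proteases and reductases that process the invariant chain and antigen, Ctss (cathepsin S) was read in every cell, at 1310 CPM in moLCs and 1528 in eLCs, with a log2 ratio of -0.22. Ifi30, the lysosomal thiol reductase GILT, stood at 463 and 501 CPM. Ctsl had reads in 15.2% of eLCs and 13.6% of moLCs. Lgmn, the asparagine endopeptidase, had a log2 ratio of -0.00 over all cells that combined -1.08 in plate 1 with 1.22 in plate 2. Sppl2a, which cuts the remaining invariant chain stub in the membrane, had -0.52, with -0.36 and -0.62.

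Rank correlations over cells were then taken within each origin and plate (29 to 67 cells). They describe these cells, which share a plate and differ in depth, and carry no test. Over all 45 pairs of members the median Spearman rho was 0.15, and over all 182 cells pooled 0.14. For comparison, all pairs of 2743 genes read in at least 50% of cells had medians of 0.01 to 0.02, with a 5th percentile of -0.32 at the lowest and a 95th of 0.33 at the highest in the 4 sets.

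The 4 abundant genes were positively correlated with each other in every set. Their 6 pairs gave 24 values with a median of 0.59, all above 0, from 0.14 (H2-Aa with Cd74 in eLCs of plate 2) to 0.86 (H2-Aa with H2-Eb1 in the same cells). H2-Aa with H2-Eb1 was the closest pair, with 0.71, 0.77, 0.76 and 0.86 in moLCs and eLCs of plate 1 and moLCs and eLCs of plate 2. In plate 2, Cd74 had 0.18 in moLCs and 0.14 in eLCs with H2-Aa, and 0.28 and 0.29 with H2-Eb1. These lay below the 95th percentile of all gene pairs there, 0.32 in moLCs and 0.30 in eLCs. The 3 editor genes formed a second set, with a median of 0.44 and 12 of 12 values above 0, and H2-DMa with H2-DMb1 gave 0.47 to 0.64. Between the sets the median was 0.05, with values from -0.40 to 0.50. Since CPM are shares of a total to which the abundant genes add, the values were also taken with totals that leave out the 10 genes and Cd207. The medians within the abundant set were then 0.64 to 0.81, against 0.52 to 0.71 with full totals.

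Ciita did not follow the level of the abundant genes across cells. Its 16 values with H2-Aa, H2-Ab1, H2-Eb1 and Cd74 had a median of -0.15, from -0.50 to 0.31, and 4 lay above 0. With the editor genes its median was 0.19, and 11 of 12 values were above 0, with 0.34, 0.51, 0.14 and 0.18 for H2-DMa. Ciita had no read in part of the cells, so ties at 0 enter its values. With the number of genes read in a cell, Ciita had a rho of 0.37, 0.38, -0.15 and 0.11 in the 4 sets. The 4 abundant genes lay below 0 in every set, from -0.59 to -0.001. The part of the number of genes read in these values was not tested. H2-Oa with H2-Ob gave 0.27 and 0.46 in moLCs and eLCs of plate 1, and -0.17 and 0.43 in those of plate 2. Both are at 0 in most cells, so their ranks are largely ties.

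**Figure D4:**
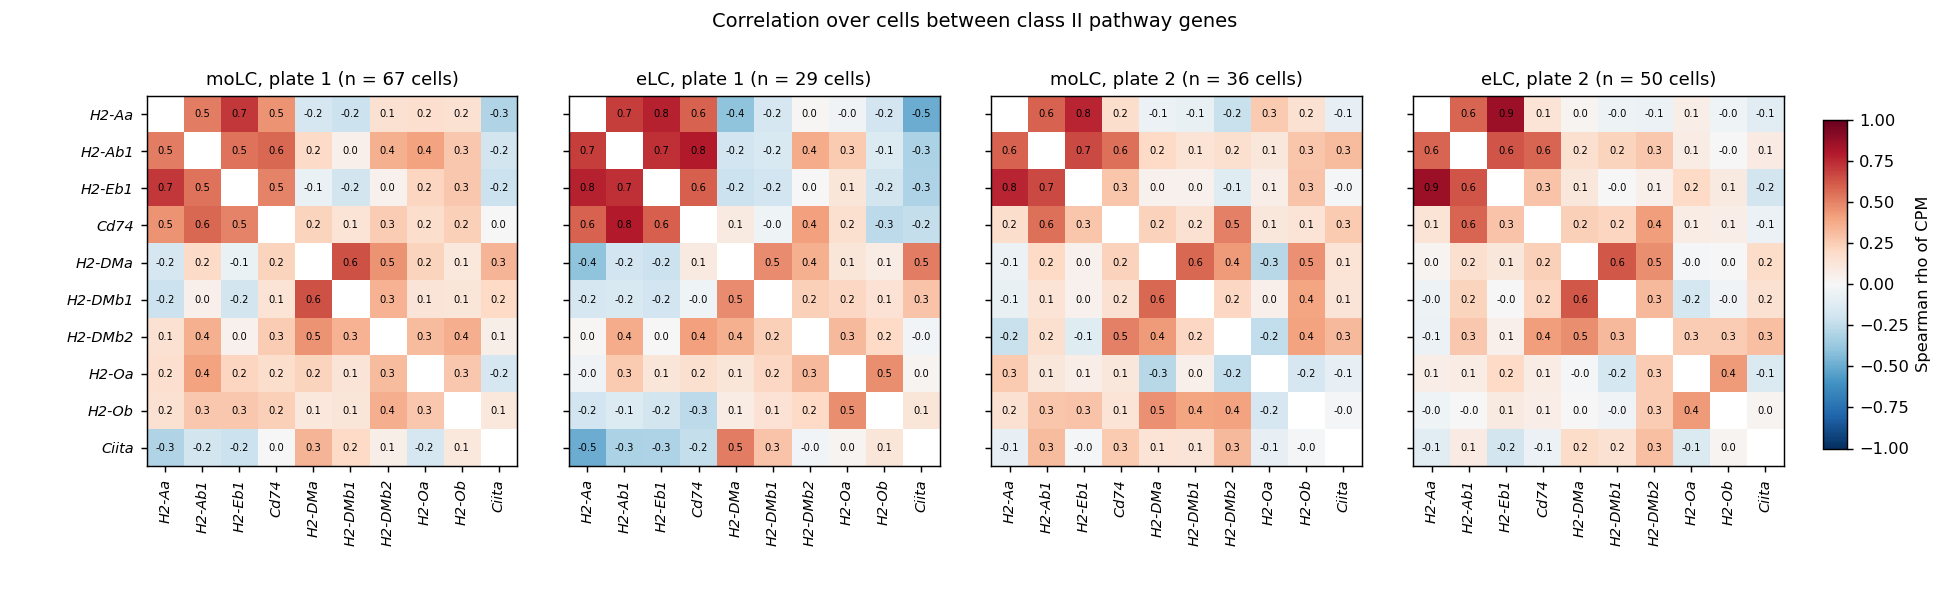
Spearman rho of CPM over cells for each pair of members, 1 panel for each origin and plate, on a colour scale from -1 (blue) to 1 (red). H2-Aa, H2-Ab1, H2-Eb1 and Cd74 form a red block in each panel, the H2-DM genes form a second, paler block, and the Ciita row is mostly blue or pale against the first block.

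The genes most like the members were named by their lowest rho over the 4 sets of cells, among 2735 candidates. With the sum of the 4 abundant genes these were Cst3, H2-Eb2, Syngr2, Cd9 and Gngt2, with lowest values of 0.29, 0.26, 0.23, 0.22 and 0.21. Cst3 encodes cystatin C, an inhibitor of cathepsins. H2-Eb2, a class II beta gene next to H2-Eb1, had reads in 94.9% of eLCs and 99% of moLCs but only at 8.93 and 7.62 CPM. At least 10 reads were found in 32.9% and 35.9%. It shared 0 identical windows of 75 bases with H2-Eb1. That count does not cover reads that align with mismatches, so reads of the far more abundant H2-Eb1 may be counted there. Their part in its likeness to the class II sum was not tested. With Ciita the 5 genes were Vasp, Lsr, Actr3, Adgrg1 and Lcp1, with lowest values of 0.28, 0.26, 0.25, 0.25 and 0.22; Vasp, Actr3 and Lcp1 encode regulators of actin.

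Langerin (Cd207), CCR7 (Ccr7) and CD86 (Cd86) mark LC identity, migration and maturation, and their transcripts were set beside each member. Cd207 was at 26238 CPM in moLCs and 2159 in eLCs, where the gene carries the inserted receptor. Across moLCs H2-Aa was higher where Cd207 was higher, with a rho of 0.47 in plate 1 and 0.52 in plate 2, while across eLCs it was -0.13 and -0.31. H2-Eb1 had 0.39 and 0.57 in moLCs, and -0.17 and -0.31 in eLCs. The other abundant genes differed between the plates in moLCs, with 0.089 in plate 1 and 0.54 in plate 2 for H2-Ab1 and -0.079 and 0.32 for Cd74. In eLCs H2-Ab1 had -0.17 and -0.24, and Cd74 -0.02 and 0.05. The pairs with H2-Aa and H2-Eb1 were picked out after their values were seen, and the difference between origins was not tested. Without the single lowest moLC the plate 1 values were 0.45 for H2-Aa and 0.36 for H2-Eb1. The rho of H2-Aa with a cell's total reads also differed in sign, at 0.14 and 0.23 in moLCs and -0.04 and -0.38 in eLCs, and its part in the result was not tested. The editor gene H2-DMb1 had a rho to Cd207 of -0.43, -0.27, -0.23 and -0.27 in the 4 sets. Its sign was opposite to that of H2-Aa and H2-Eb1 in moLCs and the same in eLCs. The values lay below the 5th percentile of all gene pairs in moLCs of plate 1 (-0.21) and eLCs of plate 2 (-0.26). In eLCs of plate 1 (-0.32) and moLCs of plate 2 (-0.30) they lay above it. This pair, too, was picked out after its values were seen.

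In eLCs, H2-DMa was lower where Ccr7 was higher, with a rho of -0.68 in plate 1 and -0.55 in plate 2. In moLCs of plate 1 the rho was -0.23, just below the 5th percentile of all pairs of genes there (-0.21), and -0.20 without the single lowest moLC. In moLCs of plate 2 it was -0.19, above the 5th percentile of -0.30. Those background pairs are of genes read in at least 50% of cells, which Ccr7 was not. The pair of H2-DMa and Ccr7 was picked out after its values were seen, and the difference between origins was not tested. Ccr7 was read in 40 moLCs and 31 eLCs, so ties at 0 enter these values. The 3 eLCs without a read of H2-DMa all had Ccr7 reads, and eLCs without Ccr7 held at least 302 CPM of H2-DMa. In moLCs, 2 of the 4 cells without H2-DMa had Ccr7 reads. H2-DMb1 with Ccr7 gave -0.22, -0.32, 0.19 and -0.41 in the 4 sets, and the abundant genes gave -0.10 to 0.41. With Cd86, the values of the members ran from -0.33 for Ciita to 0.42 for Cd74.

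**Figure D5:**
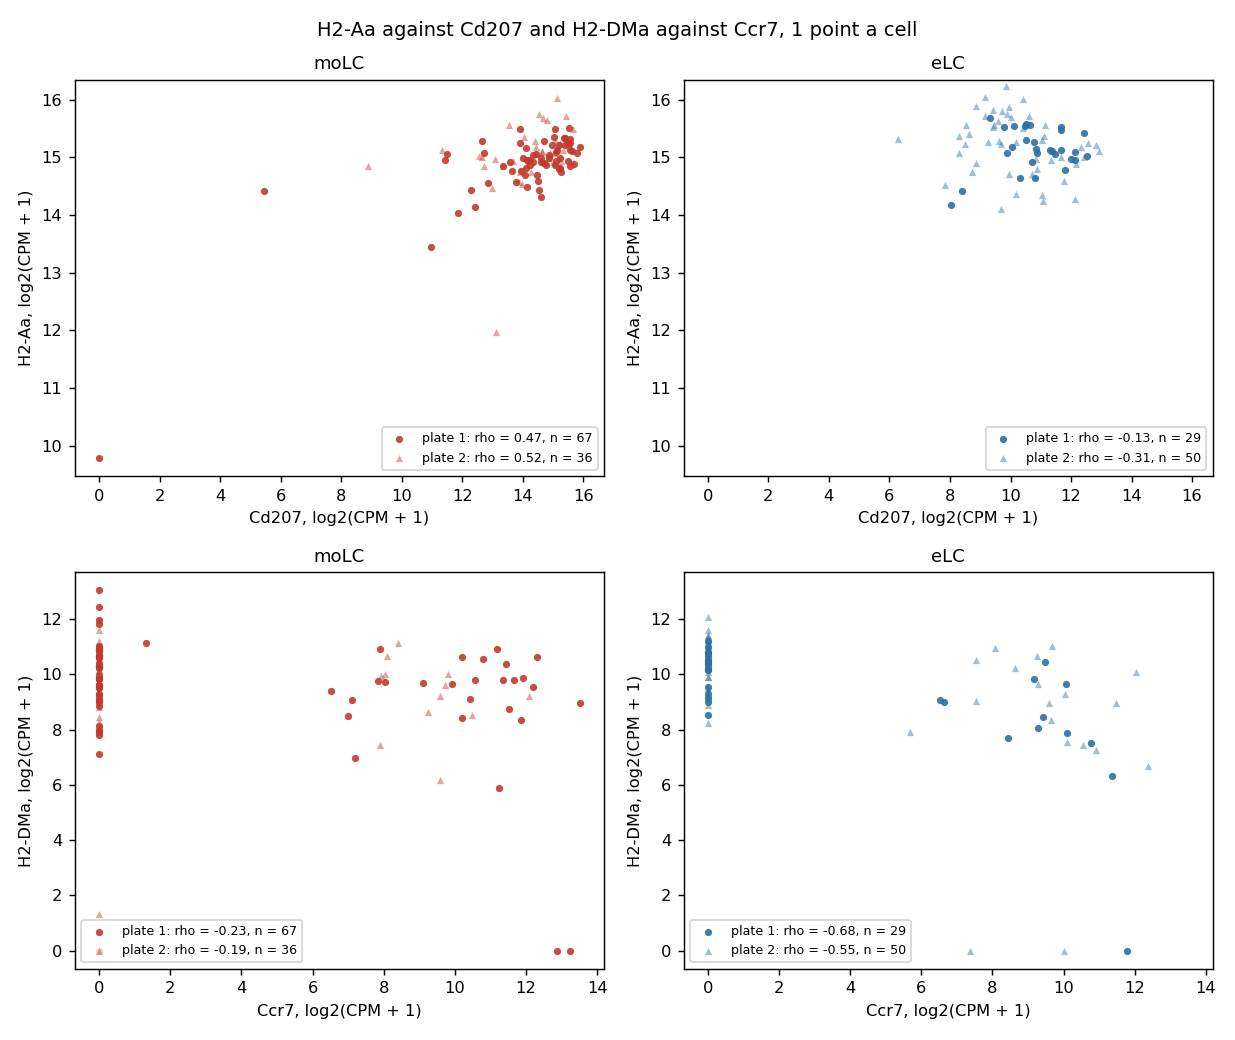
Top, H2-Aa against Cd207, and bottom, H2-DMa against Ccr7, both as log2(CPM + 1) with 1 point a cell, moLCs at left and eLCs at right, plate 1 as circles and plate 2 as triangles. H2-Aa climbs with Cd207 in moLCs (rho 0.47 and 0.52) and not in eLCs (-0.13 and -0.31), and the eLCs without H2-DMa lie at the right, among cells with Ccr7 reads.

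A single moLC of plate 1 stood apart, with 0.908% of its reads on the members, beside 3.80% in the next lowest cell, a moLC of plate 2. It held 2053825 reads, near the 10th percentile of cells, and 4642 genes. H2-Ab1 was at 233 CPM, H2-Aa at 881, H2-Eb1 at 788 and Cd74 at 7178, the lowest of the 182 cells for each, and H2-DMa, H2-DMb2, H2-Oa, H2-Ob and Ciita had no read. Cd207 and Cd86 had none either, while Ccr7, at 9601 CPM, was the second highest, and the chemokine genes Ccl22 and Ccl17 were the highest of all cells. Irf8 (784 CPM) and Batf3 (60.4 CPM), markers of type 1 dendritic cells, were the third highest, and Xcr1, Clec9a and Itgae, others of that list, had no read. Epcam was at 112 CPM, rank 175 of the 182 cells from the highest. Cd24a had no read, at rank 141, which it shared with every cell at 0. Without this cell the log2 ratio of the summed class II share was -0.038, beside -0.047 with it, and 0 members passed the size rule in both cases.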

How the data were processed

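Epidermal LCs were sorted singly and sequenced paired-end by the authors, who aligned the reads with STAR to mm10 per the labels. The counting tool and annotation are not given in the sources used here. The authors deposited 1 table of expected counts per gene and cell, not normalized; 9 values were not whole and 82.9% of values above 0 were even. A cell's CPM is its count scaled to a total of 1000000, and summed CPM uses the totals of all cells of an origin.

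Cells with over 5% of reads on mt- genes were left out (3 moLCs). Intervals are exact Poisson or Clopper-Pearson, or binomial for ratios, at 95%. A gene with 0 reads in an origin was set to 3 reads for ratios. Exon lengths and overlaps came from GENCODE M21. The size rule was tested on simulated data. Python 3.11.15, numpy 2.4.6, pandas 2.3.3, scipy 1.17.1 and, for TMM factors, edgeR 4.0.16 in R 4.3.3 were used.

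Named genes were the 10 members, the pathway list, the 5 genes most like the abundant class II genes and like Ciita by lowest rho, and Ccr7, Cd86 and Cd207. The members and lists were chosen with earlier results of these data known. Alternatives covered plates, cell filters, weights, scaling, thinning, thresholds and single cells left out. Values of some listed genes are not reported here.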

Additional observations from a re-analysis of the deposited data

How the results depend on the processing

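No paired analysis was possible because no comparison rests on a test and the labels name no animal. None of the 10 members passed the size rule under any of the alternatives run over both plates, including a fold of 1.5 and other filters on the share of cells. In plate 1 alone, where 1 ratio stands in for 3, 2 did (H2-Oa and H2-Ob). The pathway list stayed at 0 under the 10 alternatives run for it, which did not include single plates. By value, among its genes read in enough cells to be tested, Rfxap, Lgmn and Prdm1 were over 2-fold apart in plate 1. Lgmn and Irf1 were in plate 2. H2-Aa and H2-Oa had 1 sign under all 12 alternatives, from -0.24 to -0.085 and from 0.37 to 3.77. The other 8 changed sign under 1 to 3 of them, H2-Ab1 and H2-Eb1 under TMM factors, which shift all ratios by 0.10, and the rest mostly between plates. The median log2 ratio of the members, 0.0015, was 0.092 in plate 1, -0.071 in plate 2, -0.0056 with all cells as deposited, 0.023 with at most 2.5% of reads on mt- genes, -0.0069 with equal weight for each cell, 0.10 with TMM factors, -0.011 with totals without the members, 0.068 with totals without the 50 top genes and 0.011 without the lowest moLC (chosen after seeing the data), and -0.016 to 0.022 leaving out single cells. The log2 ratio of the summed class II share, -0.047, was -0.11 in plate 1, 0.017 in plate 2, -0.040 with the stricter mt- limit, -0.068 with equal weights, 0.055 with TMM factors, 0.020 without the 50 top genes, -0.057 thinned, -0.038 without the lowest moLC and -0.060 to -0.032 leaving out single cells. The median rho of member pairs, 0.14, was 0.20 by Pearson of log2(CPM + 1), 0.13 thinned, 0.20, 0.12, 0.16 and 0.11 within moLCs and eLCs of plates 1 and 2, 0.15 with all cells as deposited, 0.17 over the 8 members read in at least 50% of cells and 0.13 without the lowest moLC. The cause of these shifts was not tested. Thinned to equal depth, the shares of cells with a read of H2-Oa, H2-Ob and Ciita moved by less than their counting intervals.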
